A study of Mus musculus with 12 samples.

Results

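The genes described here encode ATP-dependent chromatin remodellers other than p400, with the subunits that travel with them. They were taken by name: every probe whose gene name in the array files begins with Smarc or Arid, or is Chd followed by a digit, and probes named Hells, Atrx, Actl6a, Actl6b, Pb1, Baz1a, Baz1b, Baz2a, Rsf1, Mbd2, Mbd3, Mta1, Mta2 or Mta3. This gave 46 genes of 27674 on the array, on 117 of 41174 probes, and the brightest probe by mean EGFP signal stood for each gene. The names Bptf, Srcap, Ino80 and Pbrm1 matched 0 probes in this form. Pb1 is an older name of Pbrm1 and Smarca3 an older name of Hltf. Of the 46 genes, 45 passed the filter on dim probes in both comparisons. Actl6b, a neuron-type actin-related subunit, was well above background on 0 of 4 p400 arrays in either RNA, and on 1 of 3 Tip60 knockdown and 1 of 4 EGFP arrays, so it was not tested.

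RNA came from mouse embryonic stem cells of the line E14, 72 hr after a knockdown with esiRNA at 0.33 ng/µl. esiRNA is a mixture of short interfering RNAs that an enzyme cuts from double-stranded RNA. Its targets were p400 (Ep400, an ATPase) or Tip60 (Kat5, a histone acetyltransferase that works in a complex with p400), and EGFP, a reporter, in the control cells. The p400 knockdown was hybridised with EGFP RNA on 4 two-colour arrays, with p400 knockdown RNA in Cy5 in replicates 1 and 3 and in Cy3 in replicates 2 and 4. Tip60 knockdown replicates 1, 2 and 4 were set against EGFP replicates 1 to 4 on single-colour arrays of 2 slides, both of which held both groups, and Tip60 replicate 3 was left out because the submitters excluded it as an outlier.

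Remodellers use the energy of ATP to slide, eject or restructure nucleosomes. BAF (SWI/SNF) complexes carry Smarca4 or Smarca2 as the motor, ISWI complexes carry Smarca5 or Smarca1, NuRD carries a Chd motor with Mta and Mbd subunits, and INO80 and SRCAP complexes handle histone variants. In embryonic stem cells the BAF complex is built around Smarca4 with Arid1a, and Chd1 is known for its link to open chromatin.

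Both knockdowns can be seen in their own targets. The Ep400 log2 ratio of p400 knockdown over EGFP was -0.65, -0.77, -0.24 and -0.67 on replicates 1 to 4. The Kat5 level, in log2 units relative to the 75th percentile of the array, was -0.19, -0.30 and -0.27 in Tip60 knockdown and 1.16, 1.15, 1.22 and 1.39 in EGFP. Kat5 was also lower in p400 knockdown, with log2 ratios of -0.28, -0.41, -0.27 and -0.76 and a log2 fold change of -0.43 ± 0.08 (SE; limma, adjusted p = 0.0109), while Ep400 gave 0.17 in Tip60 knockdown and did not pass (adjusted p = 0.0903). Between 24888 and 28388 probes were well above background on the Tip60 knockdown arrays used, against 23636 to 26470 on the EGFP arrays. Of lists of markers of other cell types, 5 of 7 endoderm genes tested rose in p400 knockdown and 6 of 6 in Tip60 knockdown. Of the fibroblast genes tested, 5 of 7 and 4 of 7 did. Among the endoderm genes, Afp passed the filter only through the knockdown RNA. It was well above background on 4 p400 knockdown and 3 Tip60 knockdown arrays, and on 0 in EGFP in both comparisons. Its rise is therefore not a free count. Gata4 had no call in p400 knockdown and was too dim to be tested in Tip60 knockdown. Over all genes tested, 20.2% were higher and 14.9% lower in p400 knockdown, and 15.1% and 10.3% in Tip60 knockdown. The summed level of the endoderm list ran from 0.40 to 0.46 in Tip60 knockdown and from -0.20 to -0.11 in EGFP, and that of the fibroblast list from 2.39 to 2.48 in Tip60 knockdown and from 1.84 to 1.94 in EGFP. In p400 knockdown the summed log2 ratios over EGFP ran from 1.17 to 1.39 and from 0.94 to 1.32. Of the fibroblast genes, 2 of 10 were well above background on none of the 7 single-colour arrays. Thy1 rose most of that list in both, by 1.43 in p400 and 1.25 in Tip60 knockdown. Col1a1 and Col1a2 gave 0.80 and 0.49 in p400 knockdown, but -0.11 and -0.16 in Tip60 knockdown with no call. The summed fibroblast level therefore does not stand for every gene of the list. The summed ES cell markers ran from 9.18 to 9.25 in Tip60 knockdown and from 9.02 to 9.58 in EGFP, and from -0.25 to 0.04 as p400 log2 ratios; of 8, 0 were higher and 2 lower in p400 knockdown, and 1 higher and 2 lower in Tip60 knockdown. Of 7 neural ectoderm genes, 3 were higher and 2 lower in p400 knockdown and 1 higher and 1 lower in Tip60 knockdown. The part of these changes in the results below was not tested, and fewer cells of a type and less RNA per cell cannot be told apart in bulk RNA.

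The probes that the results turn on in several places are 60 bases long, and 5 of them span an exon junction, since their positions in the genome (build mm7, per the files) cover more bases than the probe holds. They are shown because they stand for Smarca4, for 2 Chd4 probes with unlike values, for the second Mta3 probe that fell in both knockdowns, and for Smarcd3.
Smarca4, chr9:21520316-21521714, plus strand: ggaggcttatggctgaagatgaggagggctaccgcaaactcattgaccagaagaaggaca
Chd4, brightest probe, chr6:125122873-125126133, plus strand: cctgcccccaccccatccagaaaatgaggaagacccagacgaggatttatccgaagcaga
Chd4, second probe, chr6:125149253-125154395, plus strand: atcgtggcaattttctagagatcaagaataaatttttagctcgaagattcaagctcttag
Mta3, second probe, chr17:82094554-82098927, plus strand: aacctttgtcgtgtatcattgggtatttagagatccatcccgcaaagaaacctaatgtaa
Smarcd3, chr5:23633267-23633538, minus strand: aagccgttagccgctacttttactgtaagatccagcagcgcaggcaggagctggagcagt

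In p400 knockdown, 8 members were higher and 11 lower at an adjusted p under 0.05 by limma, of 45 tested. Over all 18649 genes tested, 20.2% were higher and 14.9% lower. Of the members, 17.8% were higher and 24.4% lower, and their median log2 fold change was 0.01, as was that of all genes (0.01). All 11 falls had 1 sign on all 4 arrays, and 5 of 8 rises did. These signs come from the same values as the calls and add no separate support. Of the members tested, called or not, 15.6% were higher and 35.6% lower on all 4 arrays, against 28.6% and 24.2% of all genes. Centring the arrays on their medians in place of loess moved the median of all genes to -0.10 and the split to 4 higher and 23 lower members, with 15.4% and 36% of all genes called. Scaling the arrays to a common spread left 2 higher and 2 lower members, with 10.6% and 3.31% of all genes called. Of 33 members with more than 1 tested probe, 2 had probes called in opposite directions in p400 knockdown (Chd5 and Arid5b) and 0 of 32 did in Tip60 knockdown.

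**Figure D1:**
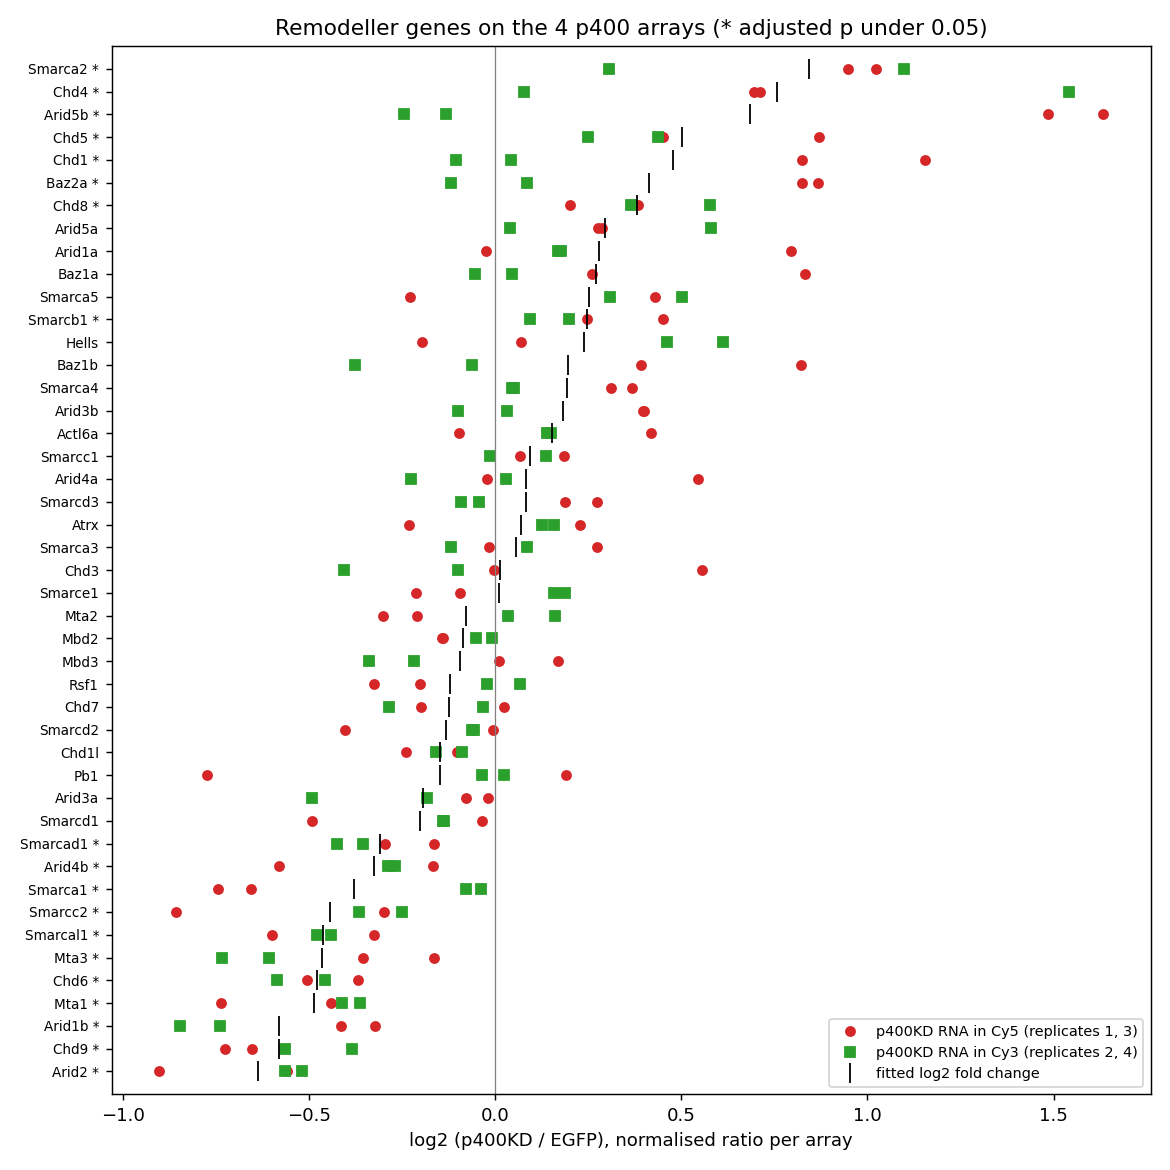
Log2 ratio of p400 knockdown over EGFP for the 45 tested remodeller genes, 1 point per array (circles, p400 knockdown RNA in Cy5; squares, in Cy3), with the fitted log2 fold change as a tick and genes ordered by it. Smarca2 lies highest at 0.84 and Arid2 lowest at -0.64, and for Arid5b, Chd1 and Baz2a the circles stand far right of the squares.

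In Tip60 knockdown, 4 members were higher and 10 lower of 45 tested by limma. Over all 16954 genes tested, 15.1% were higher and 10.3% lower. Of the members, 8.89% were higher and 22.2% lower, and their median log2 fold change was -0.17, against 0.01 for all genes. In all 14 calls the Tip60 knockdown and EGFP arrays did not overlap, which comes from the same values as the calls and adds no separate support. Of the members tested, called or not, 8.89% lay higher and 31.1% lower without overlap, against 19.5% and 16.8% of all genes. Scaling to the array median moved the median of all genes to -0.20 and the split to 1 higher and 25 lower members, with 8.42% and 29% of all genes called. With slide as a block 4 members were higher and 12 lower (16.7% and 11.6% of all genes). Within slide 2 alone, with Tip60 replicates 2 and 4 and EGFP replicates 1 and 3, 1 was higher and 3 lower (8.23% and 2.55% of all genes). Slide 3 held 1 of the Tip60 knockdown arrays used, replicate 1, so no count is given for that slide alone. The count of rises fell to 1 without Tip60 replicate 2 or EGFP replicate 1, 2 or 4, and to 2 without Tip60 replicate 1 or 4.

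**Figure D2:**
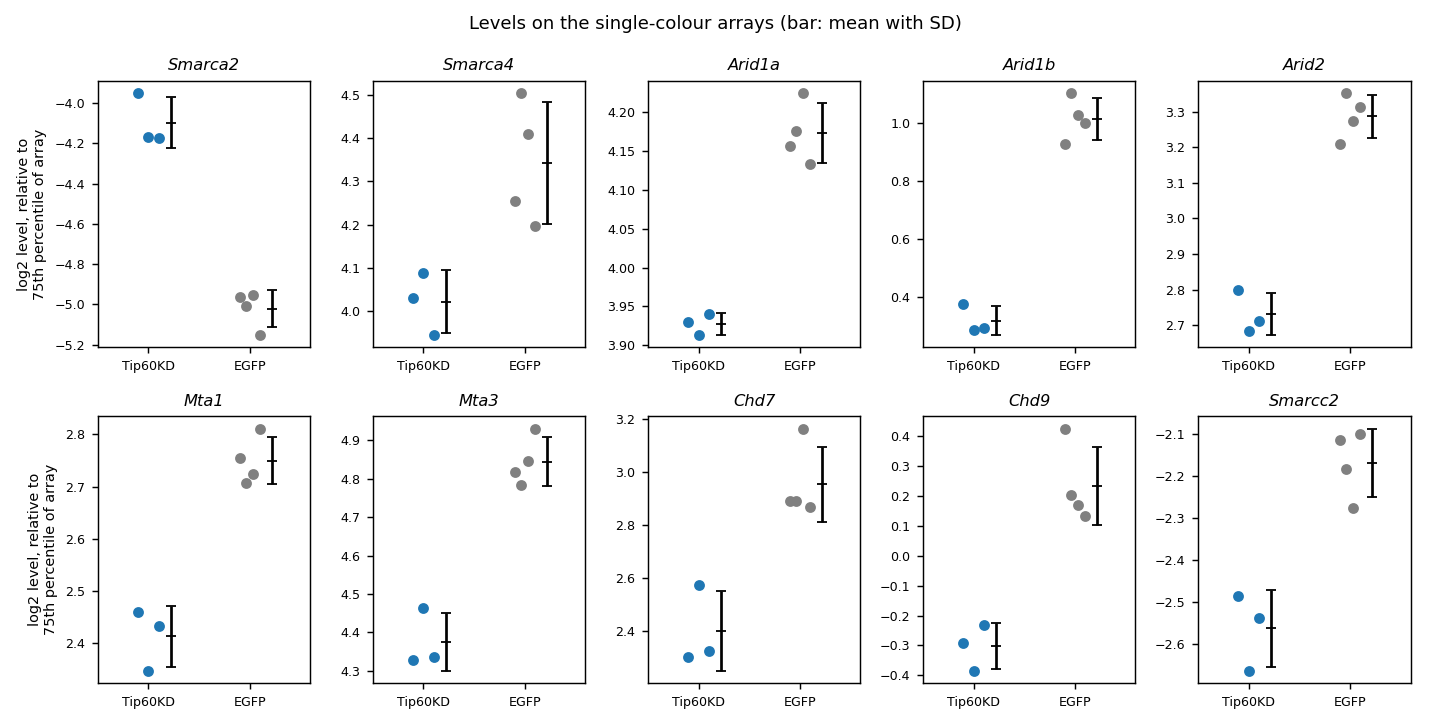
Log2 level relative to the array's 75th percentile for 10 members in Tip60 knockdown (3 arrays, left) and EGFP (4 arrays, right), with the mean and SD beside the points. Smarca2 sits higher in Tip60 knockdown, and the other 9 genes sit lower, with no overlap of the groups. The 10 were picked from the 14 members called in Tip60 knockdown, so the split and the lack of overlap follow from that choice. Smarcd3, Chd5 and Arid5a, called higher, and Arid4b, called lower, are not shown.

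Among the ATPases of BAF complexes, Smarca2 (Brm), the alternative motor, rose in both knockdowns and Smarca4 (Brg1), the motor of the embryonic stem cell complex, did not. The Smarca2 log2 ratio was 0.95, 1.1, 1.02 and 0.31 on the p400 arrays, all positive, with a log2 fold change of 0.84 ± 0.13 (SE, n = 4; limma, adjusted p = 0.00602). Its level was -3.95, -4.17 and -4.18 in Tip60 knockdown and -4.97, -5.01, -4.96 and -5.15 in EGFP, so every Tip60 knockdown array lay above every EGFP array. The difference was 0.92 ± 0.08 (SE, limma, adjusted p = 0.000261), or 1.90-fold. Smarca2 was dim, with a mean processed signal of 34.7 in EGFP, though well above background on all 7 arrays. A second probe of Smarca2 rose as well, by 0.31 ± 0.07 (SE) in p400 knockdown and by 1.14 in Tip60 knockdown, so the size in p400 knockdown depended on the probe. The size also moved with the processing, from 0.58 to 1.87 in p400 knockdown and from 0.27 to 1.13 in Tip60 knockdown over the alternatives, with Smarca2 called higher in each.

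Smarca4 had log2 ratios of 0.37, 0.05, 0.31 and 0.05 on the p400 arrays, all above 0, but did not pass the test (0.19 ± 0.06 SE, n = 4; limma, adjusted p = 0.0577). In Tip60 knockdown its level was 4.03, 4.09 and 3.94, against 4.26, 4.50, 4.41 and 4.20 in EGFP. The 2 groups did not overlap, and Smarca4 fell by 0.32 ± 0.09 (SE; limma, adjusted p = 0.034). The call was lost when any one of the 3 Tip60 replicates, or EGFP replicate 2 or 3, was left out (adjusted p from 0.057 to 0.111), and its other 2 probes gave -0.20 and -0.22, with adjusted p of 0.052 and 0.293. The 2 knockdowns differed by 0.52 (95% interval 0.25 to 0.78) in Smarca4, with an adjusted p of 0.0576 over all genes, so this difference did not pass.

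The Arid subunits direct BAF complexes to their sites, Arid1a and Arid1b in one form and Arid2 in the PBAF form. Arid1b and Arid2 fell in both knockdowns. Arid1b had log2 ratios of -0.32, -0.74, -0.41 and -0.85 on the p400 arrays and a log2 fold change of -0.58 ± 0.07 (SE; limma, adjusted p = 0.0026). In Tip60 knockdown its level was 0.38, 0.29 and 0.29, against 0.93, 1.1, 1.03 and 1.0 in EGFP, a log2 fold change of -0.70 ± 0.06 (SE; limma, adjusted p = 0.00023). No Tip60 knockdown array reached the lowest EGFP array. A second Arid1b probe fell too, by 0.65 in p400 and 0.82 in Tip60 knockdown.

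Arid2 had log2 ratios of -0.56, -0.52, -0.90 and -0.56 on the p400 arrays, with replicate 3 the lowest, and a log2 fold change of -0.64 ± 0.08 (SE; limma, adjusted p = 0.00343). On the single-colour arrays Arid2 was at 2.80, 2.68 and 2.71 in Tip60 knockdown, against 3.21, 3.35, 3.27 and 3.31 in EGFP (log2 fold change -0.56 ± 0.06 SE; limma, adjusted p = 0.000568). The groups were apart by more than the spread within either, and a second Arid2 probe gave -0.55 in p400 and -0.54 in Tip60 knockdown. An additional Arid2 probe, under the clone name 1700124K17Rik and so outside the rule, gave 0.04 and -0.17, with adjusted p of 0.624 and 0.319.

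Arid1a, the partner of Smarca4 in stem cell BAF, had log2 ratios of -0.02, 0.17, 0.80 and 0.18 on the p400 arrays, which did not pass the test (0.28 ± 0.13 SE; limma, adjusted p = 0.154). Without p400 replicate 1 the value was 0.48 and was called higher (adjusted p = 0.0115), and without replicate 3 it was 0.07. In Tip60 knockdown its level was 3.93, 3.91 and 3.94, against 4.16, 4.18, 4.22 and 4.13 in EGFP. The fall was small, 0.25 ± 0.05 (SE; limma, adjusted p = 0.00891), but every Tip60 knockdown array lay below every EGFP array. Pb1, the bromodomain subunit of PBAF, gave -0.15 and -0.11 and passed neither test.

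Of the 9 core and accessory BAF subunits, 8 were tested, with 1 higher and 1 lower in each knockdown. Over all genes, 20.2% were higher and 14.9% lower in p400 knockdown, and 15.1% and 10.3% in Tip60 knockdown. Smarcc2 (Baf170), a scaffold subunit, fell in both. Its log2 ratios were -0.86, -0.37, -0.30 and -0.25 on the p400 arrays (-0.44 ± 0.10 SE; limma, adjusted p = 0.021, and 0.085 without p400 replicate 2). Its level was -2.49, -2.66 and -2.54 in Tip60 knockdown and -2.11, -2.18, -2.28 and -2.10 in EGFP (-0.39 ± 0.07 SE; limma, adjusted p = 0.00621), with no overlap. The stem cell scaffold Smarcc1 (Baf155) passed neither test, at 0.09 and -0.16, though its second probe was lower in p400 knockdown at -0.45 (limma, adjusted p = 0.00563).

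Smarcd3 (Baf60c), known for its role in heart and muscle, had a level of -0.18, -0.17 and -0.44 in Tip60 knockdown and -0.64, -0.63, -0.49 and -0.69 in EGFP. The groups did not overlap, and the log2 fold change was 0.35 ± 0.09 (SE; limma, adjusted p = 0.0247), a call that was lost without Tip60 replicate 1 or 2 or EGFP replicate 1, 2 or 4 (adjusted p from 0.0604 to 0.0818). In p400 knockdown Smarcd3 gave 0.08 ± 0.06 (SE; limma, adjusted p = 0.361). Smarcb1 (Snf5), a subunit common to BAF forms, was higher in p400 knockdown by 0.25 (limma, adjusted p = 0.0391), a call that was lost without p400 replicate 2, 3 or 4 (adjusted p from 0.121 to 0.164), and its Tip60 value was 0.00. The remaining subunits Actl6a, Smarcd1, Smarcd2 and Smarce1 ran from -0.20 to 0.15 in p400 knockdown and from -0.19 to 0.13 in Tip60 knockdown, with no call.

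The NuRD partners held 2 falls in each knockdown, of 5 tested, and 0 rises. Of all genes, 14.9% fell and 20.2% rose in p400 knockdown, and 10.3% and 15.1% in Tip60 knockdown. Mta1 and Mta3, subunits that link the histone deacetylases to the complex, fell in both, while Mta2 gave -0.08 and -0.09 and passed neither test. Mta1 had log2 ratios of -0.73, -0.36, -0.44 and -0.41 on the p400 arrays (-0.49 ± 0.08 SE; limma, adjusted p = 0.00613). The level of Mta1 was 2.46, 2.35 and 2.43 in Tip60 knockdown, against 2.76, 2.71, 2.73 and 2.81 in EGFP (-0.34 ± 0.05 SE; limma, adjusted p = 0.00406), again without overlap.

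Mta3 had log2 ratios of -0.35, -0.73, -0.16 and -0.61 on the p400 arrays (-0.46 ± 0.07 SE; limma, adjusted p = 0.0058). The level of Mta3 was 4.33, 4.46 and 4.34 in Tip60 knockdown, against 4.82, 4.78, 4.85 and 4.93 in EGFP (-0.47 ± 0.06 SE; limma, adjusted p = 0.00164). The junction probe of Mta3 shown above gave -0.46 and -0.72, lower in both as well. Mbd2 and Mbd3, which recruit the complex to methylated DNA or hold it together, did not pass in either knockdown, at -0.09 and -0.09 in p400 and 0.15 and -0.05 in Tip60 knockdown.

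Among the CHD motors, 4 were higher and 2 lower of 9 tested in p400 knockdown, and 1 higher and 2 lower in Tip60 knockdown. The shares of all genes were 20.2% higher and 14.9% lower in p400 knockdown, and 15.1% and 10.3% in Tip60 knockdown. Chd9 fell in both. Its log2 ratios were -0.73, -0.56, -0.65 and -0.38 on the p400 arrays (-0.58 ± 0.07 SE; limma, adjusted p = 0.00288), and its level was -0.29, -0.38 and -0.23 in Tip60 knockdown and 0.43, 0.20, 0.17 and 0.13 in EGFP (-0.54 ± 0.08 SE; limma, adjusted p = 0.00368). Of its 5 tested probes, 2 were lower in p400 knockdown and 4 in Tip60 knockdown, and the median over probes in p400 knockdown was -0.19 with an adjusted p of 0.296.

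Chd7, the motor mutated in CHARGE syndrome in humans, fell in Tip60 knockdown, with levels of 2.30, 2.58 and 2.33 against 2.89, 2.89, 3.16 and 2.87 in EGFP (-0.55 ± 0.10 SE; limma, adjusted p = 0.00764). Its p400 log2 ratios were 0.02, -0.03, -0.20 and -0.29 (-0.12 ± 0.08 SE; limma, adjusted p = 0.272), and the difference between knockdowns, 0.43 (95% interval 0.11 to 0.74), had an adjusted p of 0.111. Chd6 was lower in p400 knockdown, with log2 ratios of -0.50, -0.46, -0.37 and -0.58 (-0.48 ± 0.07 SE; limma, adjusted p = 0.00481), and 4 of its 6 probes were lower. In Tip60 knockdown it gave -0.24 (limma, adjusted p = 0.0779).

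The rises of Chd1, Chd4 and Chd5 in p400 knockdown depended on the probe. Chd1, a motor linked to open chromatin in stem cells, had log2 ratios of 0.82, -0.10, 1.15 and 0.04, high in replicates 1 and 3, where p400 knockdown RNA was in Cy5, and near 0 in replicates 2 and 4. The log2 fold change was 0.48 ± 0.08 (SE; limma, adjusted p = 0.0079), with an adjusted p of 0.123 without the dye term. The other 2 Chd1 probes gave -0.20 and -0.03, with adjusted p of 0.373 and 0.845. In Tip60 knockdown its level was 0.94, 1.12 and 0.86, against 0.90, 1.11, 1.15 and 0.95 in EGFP, with the groups overlapping.

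Chd4, the usual NuRD motor in stem cells, had log2 ratios of 0.70, 0.08, 0.71 and 1.54 on the p400 arrays (0.76 ± 0.22 SE; limma, adjusted p = 0.0415). The value was 1.12 without p400 replicate 2 and 0.39 without replicate 4, both still called. The call was lost without p400 replicate 1 (adjusted p = 0.0975) or 3 (0.107). It was also lost with the deposited log ratio, median centring, normexp offset 0, a common spread or no filter (adjusted p from 0.0601 to 0.23). Its spot was saturated in 2 channels of these arrays, and the second probe shown above gave -0.06 (adjusted p = 0.638) while its dimmest probe gave 0.55 (adjusted p = 0.00537). In Tip60 knockdown it was 3.01 and 2.90, against 3.35, 3.42 and 3.04 in EGFP, since Tip60 replicate 2 and EGFP replicate 3 were dropped from the fit as outlier spots. It gave -0.31 ± 0.13 (SE; limma, adjusted p = 0.155), and the 2 knockdowns differed by 1.07 (95% interval 0.42 to 1.73; adjusted p = 0.0833).

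Chd5, a brain-enriched CHD, had log2 ratios of 0.45, 0.44, 0.87 and 0.25 on the p400 arrays (0.50 ± 0.09 SE; limma, adjusted p = 0.0096). Its level was -1.69, -1.47 and -1.66 in Tip60 knockdown and -2.03, -1.95, -1.78 and -1.96 in EGFP (0.32 ± 0.08 SE; limma, adjusted p = 0.0278), a call that was lost without Tip60 replicate 2 or 4 or EGFP replicate 1, 2 or 4 (adjusted p from 0.0605 to 0.0789). Its second probe was lower in p400 knockdown, at -0.37 (adjusted p = 0.00885), and gave -0.01 in Tip60 knockdown. Chd8 was higher in p400 knockdown at 0.38 (limma, adjusted p = 0.0121, and 0.0738 without p400 replicate 2) and gave -0.01 in Tip60 knockdown. Chd3 and Chd1l passed neither test.

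**Figure D3:**
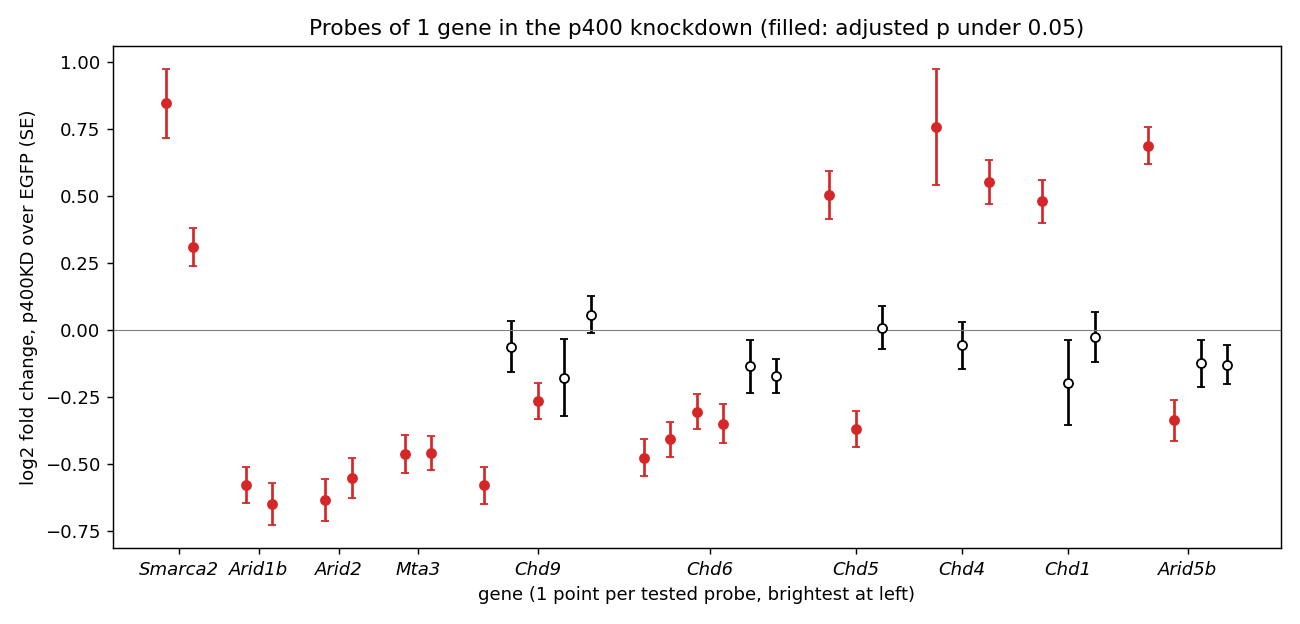
Log2 fold change of p400 knockdown over EGFP with its SE for each tested probe of 10 genes, brightest probe at the left of each gene and filled where the adjusted p was under 0.05. Probes of Arid1b, Arid2 and Mta3 lie together below 0, while those of Chd5 and Arid5b are called on both sides of 0.

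Of the ISWI motors, Smarca5 (Snf2h), which is needed in early embryos, gave 0.25 and -0.04 and passed neither test, though its second probe was higher in p400 knockdown at 0.47 (limma, adjusted p = 0.0172). Its log2 ratios were -0.23, 0.31, 0.43 and 0.50 on the p400 arrays, and its level was 2.80, 2.76 and 2.68 in Tip60 knockdown and 2.79, 2.86, 2.71 and 2.79 in EGFP, with the groups overlapping. Smarca1 (Snf2l) had log2 ratios of -0.74, -0.04, -0.65 and -0.08 on the p400 arrays, low where the p400 knockdown RNA was in Cy5. It fell by 0.38 ± 0.06 (SE; limma, adjusted p = 0.00779), but had an adjusted p of 0.0761 without the dye term. In Tip60 knockdown its level was 0.28, 0.26 and 0.53, against 0.66, 0.70, 0.53 and 0.49 in EGFP, with overlap (-0.24 ± 0.09 SE; limma, adjusted p = 0.0918). The second Smarca1 probe went the other way in its calls. It was lower in Tip60 knockdown, at -0.29 (limma, adjusted p = 0.0266), and had no call in p400 knockdown, at -0.20 (adjusted p = 0.059). Which knockdown lowered Smarca1 thus depended on the probe.

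Of 4 ISWI partners, Baz2a (Tip5, of the nucleolar NoRC complex) was higher in p400 knockdown, with log2 ratios of 0.87, -0.12, 0.82 and 0.09, again by dye (0.41 ± 0.07 SE; limma, adjusted p = 0.00755). The value averaged 0.85 with p400 knockdown RNA in Cy5 and -0.02 with it in Cy3. In Tip60 knockdown Baz2a gave -0.17. Baz1a, Baz1b and Rsf1 passed neither test, between -0.12 and 0.27 in p400 knockdown and between -0.24 and -0.08 in Tip60 knockdown. The second Baz1b probe was lower in p400 knockdown, at -0.38 (limma, adjusted p = 0.0247). The dimmest Baz1a probe was lower in Tip60 knockdown, at -0.31 (limma, adjusted p = 0.0345).

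Of the other SNF2 motors, Smarcad1 and Smarcal1, which act in silencing and at stalled replication forks, fell in p400 knockdown by 0.31 and 0.46 (limma, adjusted p = 0.016 and 0.00673) and gave -0.21 and -0.19 in Tip60 knockdown, with no call. The Smarcad1 call was lost without p400 replicate 2 or 4 (adjusted p from 0.0698 to 0.0767). Hells (Lsh), needed for DNA methylation of repeats, had log2 ratios of -0.20, 0.61, 0.07 and 0.46 on the p400 arrays. Its level was 3.48, 3.40 and 3.58 in Tip60 knockdown and 3.56, 3.46, 3.29 and 3.35 in EGFP, and neither difference passed. Atrx, which deposits the variant histone H3.3 at repeats, had log2 ratios of -0.23, 0.16, 0.23 and 0.12, and levels of -1.59, -1.67 and -1.65 in Tip60 knockdown and -1.55, -1.60, -1.86 and -1.63 in EGFP. Neither passed, but another Atrx probe under the clone name 4833408C14Rik, outside the rule, was lower in both, at -0.39 and -0.29 (limma over all probes, adjusted p = 0.0338 and 0.0479). Smarca3 gave 0.06 and -0.05.

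Of 6 other ARID genes, Arid4b, a subunit of the Sin3 deacetylase complex, fell in both knockdowns, by 0.33 and 0.30 (limma, adjusted p = 0.0316 and 0.0369). The p400 call was lost without p400 replicate 1, 2 or 4 (adjusted p from 0.082 to 0.118), and the Tip60 call when any one of the 3 Tip60 replicates, or EGFP replicate 1, 2 or 4, was left out (from 0.0532 to 0.0887). Arid5a was higher in Tip60 knockdown, with levels of -2.46, -2.88 and -2.78 against -3.30, -3.37, -2.99 and -3.01 in EGFP (0.46 ± 0.14 SE; limma, adjusted p = 0.0469). That call was lost when any one of the 3 Tip60 replicates, or EGFP replicate 1, 2 or 4, was left out (adjusted p from 0.0518 to 0.127). Arid3a, Arid3b and Arid4a passed neither test.

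Arid5b, a DNA-binding regulator of fat and blood cells, was called higher in p400 knockdown, but its values do not form one pattern. The log2 ratios were 1.48, -0.13, 1.63 and -0.24, split by dye, and the file places only 18 bases of this probe in the genome (chr10:67698959-67698976, build mm7). In the single-colour arrays its level was 3.70 and 2.90 in Tip60 knockdown, with replicate 2 dropped as an outlier spot, and 3.48, 3.43, 9.01 and 3.48 in EGFP, where the spot of replicate 3 was saturated. The fold change of -1.55 was not called (limma, adjusted p = 0.559), and was -0.16 without EGFP replicate 3. The second probe of Arid5b gave -0.34 in p400 and -0.36 in Tip60 knockdown, both lower (adjusted p = 0.0188 and 0.0223).

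Set side by side, 2 members were higher and 7 lower in both knockdowns: Smarca2 and Chd5, and Arid1b, Arid2, Arid4b, Chd9, Mta1, Mta3 and Smarcc2. Over the 16852 genes tested in both, 10.6% were higher and 5.70% lower in both. Of the members, 4.44% were higher and 15.6% lower in both. With the p400 arrays scaled to a common spread, Smarca2 and Chd5 were still higher in both, and Chd9 was the 1 member lower in both (7.76% and 1.6% of all genes). Without p400 replicate 2 the 7 lower became 5 (3.48% of all genes), and within slide 2 of the Tip60 arrays 3 (1.72%). Arid1b and Arid2 were among those 5 and those 3. With the common spread their p400 calls were lost (limma, adjusted p = 0.1 and 0.0678). Chd5 was no longer higher in both without Tip60 replicate 2 or 4 or EGFP replicate 1, 2 or 4. The test of the difference between the knockdowns called 0 members, against 4.01% of all genes (2.24% higher, 1.77% lower). At an unadjusted p under 0.05 there were 13 of 45 members (28.9%), against 25.1% of all genes. With Satterthwaite degrees of freedom the test called 7 members higher and 0 lower, against 7.29% and 7.45% of all genes. The 2 experiments used different EGFP arrays and different array formats, which this comparison cannot tell apart from the knockdowns.

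**Figure D4:**
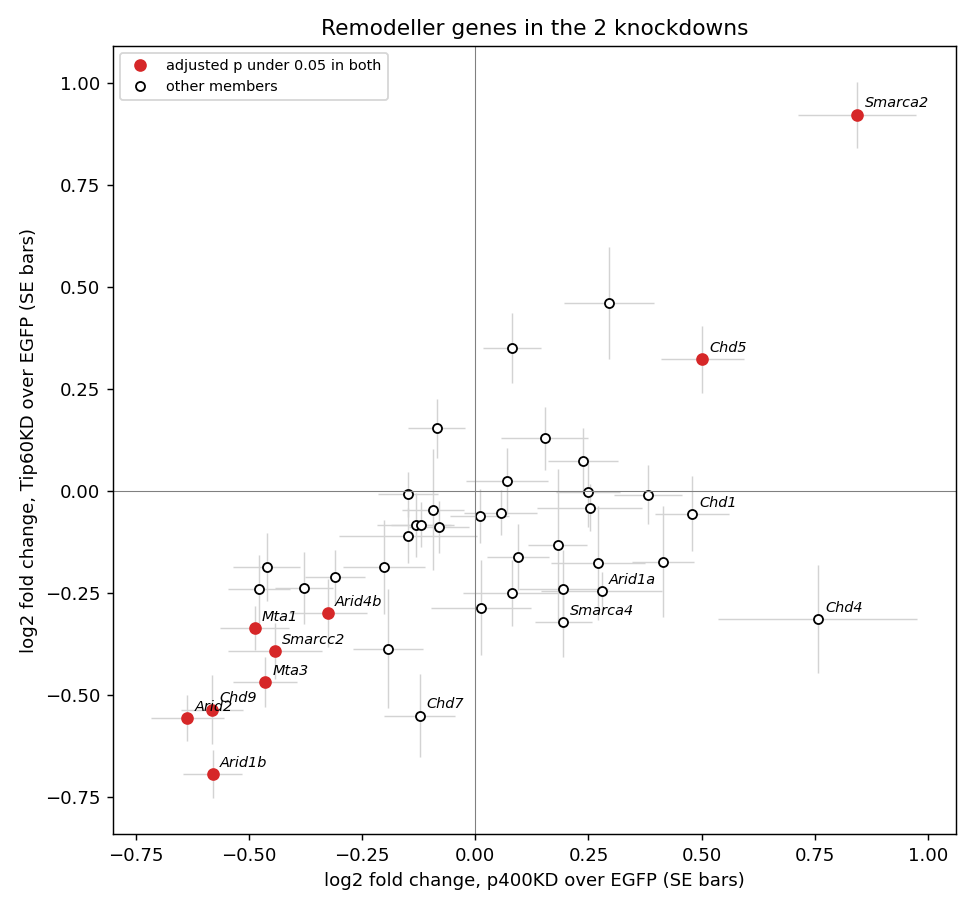
Log2 fold change of each remodeller gene in p400 knockdown (x axis) and Tip60 knockdown (y axis), both over EGFP, with SE bars; Arid5b is left off for its saturated EGFP spot. Filled points passed in both knockdowns: Smarca2 and Chd5 lie upper right, and 7 genes lower left.

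Genes of the same complexes and further SNF2 motors that the naming rule does not take were counted as well. Of 48 tested, 4 were higher and 10 lower in p400 knockdown and 2 higher and 3 lower in Tip60 knockdown, with medians of -0.03 and -0.05, beside 20.2% and 14.9% of all genes in p400 knockdown and 15.1% and 10.3% in Tip60 knockdown. The 9 further SNF2 motors tested held 0 rises and 4 falls in p400 knockdown, and 0 rises and 1 fall in Tip60 knockdown. The 7 NuRD partners tested gave 0 calls in either by limma. Dpf3, a BAF subunit of heart and muscle, rose by 1.45 ± 0.16 in p400 and 1.88 ± 0.09 in Tip60 knockdown (SE; limma, adjusted p = 0.00247 and 1.3e-05). Its level was -2.06, -1.99 and -2.06 in Tip60 knockdown and -3.83, -4.03, -3.74 and -4.07 in EGFP. Bcl7a fell in both, by 0.58 and 0.61. Rad54b, of the further SNF2 motors, also fell in both, by 0.64 and 0.27, where the Tip60 call was lost without Tip60 replicate 1 or 2 (adjusted p from 0.0517 to 0.064).

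Some remodeller motors, and the ISWI partner Bptf, were on the array under older or clone names. Ino80, named Inoc1 there, had log2 ratios of 0.69, 1.32, 1.48 and 1.49 on the p400 arrays, all well above 0 (1.25 ± 0.13 SE; limma, adjusted p = 0.0022). Its level was 3.60, 3.53 and 3.59 in Tip60 knockdown and 2.89, 2.89, 2.87 and 2.89 in EGFP (0.69 ± 0.05 SE; limma, adjusted p = 6.3e-05), with no overlap. Chd2 (5630401D06Rik) fell in both, by 0.71 and 0.46, while Srcap (D030022P06Rik) and Bptf (Falz) passed neither test.

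Promoter sequence was in the reference tables for 35 members, from RefSeq (GRCm38.p6), as the 250 bases before the gene start. These promoters are shown for a member that rose in both knockdowns and one that fell in both, with the GC box GGGCGG or its reverse complement in capitals.
Smarca2, chr19:26604910-26605159, plus strand: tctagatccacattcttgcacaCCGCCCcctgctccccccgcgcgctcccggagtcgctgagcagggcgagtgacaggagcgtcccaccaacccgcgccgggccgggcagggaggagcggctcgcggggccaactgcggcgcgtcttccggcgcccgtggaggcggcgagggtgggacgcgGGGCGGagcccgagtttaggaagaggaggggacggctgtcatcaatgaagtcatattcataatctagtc
Mta1, chr12:113098028-113098277, plus strand: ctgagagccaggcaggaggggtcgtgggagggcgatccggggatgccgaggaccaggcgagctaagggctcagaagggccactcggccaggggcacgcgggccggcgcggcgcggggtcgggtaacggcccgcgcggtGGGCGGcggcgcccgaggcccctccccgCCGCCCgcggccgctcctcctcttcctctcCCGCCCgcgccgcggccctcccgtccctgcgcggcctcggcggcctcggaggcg
The Smarca2 window held 2 GC boxes and the Mta1 window 3, and 32.7% of all 32851 promoters held at least 1 on either strand. Of 5 members lower in both with a promoter in the table, 3 held one in at least 1 promoter. This counts genes, some with more than 1 promoter, while the 32.7% counts promoters. The E-box CACGTG, searched likewise, was in 6.02% of all promoters and in 0 of these 5.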

How the data were processed

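Expression was measured on Agilent arrays of design 014868. Per the file headers, scans were read with Feature Extraction 9.5.1.1, which gave spot intensity, a background-subtracted processed signal intensity and, on two-colour arrays, the deposited log10 ratio of red over green. The deposited series matrix holds log2 values; its p400 columns run as knockdown over EGFP (r with the ratios used here 0.915 to 0.988), and its normalization is not given in the sources used here.

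Two-colour arrays were corrected with normexp (offset 50) and loess. Single-colour values were log2 processed signal minus the 75th percentile of the array. The p400 model held knockdown and dye. Both were fitted with limma 3.58.1 in R 4.3.3 across all genes, with Benjamini-Hochberg adjustment. Values of second and further probes came from the same fit over all probes. The 1639 control spots and outlier flags were left out. The filter on dim probes required a well-above-background flag on 3 or more arrays of the knockdown or of the EGFP RNA. Genes were named by accession, symbol or synonym in RefSeq (GRCm38.p6); members kept the files' names. Values per sample were given for marker members, main ATPases, and the largest, shared or at least 1.5-fold changes; the fits were tested on simulated data. The members and lists were chosen with earlier results of these data known. The number of arrays limits the precision.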

Additional observations from a re-analysis of the deposited data

Results flagged for a closer look

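Arrays that stood apart from the other 3 of their kind, by a gap wide against the whole range, were found among 22 members for p400 ratios and 21 for EGFP levels; chance flags about 1 in 20 groups of 4. The Arid2 log2 ratio on p400 replicate 3 was -0.90, while the others ran from -0.56 to -0.52. The Arid5b level in EGFP replicate 3 was 9.01, on a saturated spot, while the others ran from 3.43 to 3.48. The Chd7 level in EGFP replicate 3 was 3.16, while the others ran from 2.87 to 2.89.

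Tip60 replicate 3, which the comparison left out, lay above every EGFP array for 4 of the 22 members (18.2%) and below every one for 12 (54.5%), against 21% and 49.8% of all genes tested. The 4 above are given here. Its Smarca2 level was -4.23, against -5.15 to -4.96 in EGFP, and its Smarcd3 level was -0.32, against -0.69 to -0.49 in EGFP. Its Arid5a level was -0.86, against -3.37 to -2.99 in EGFP, also above the other Tip60 knockdown arrays. Its Mbd2 level was -0.26, against -0.52 to -0.29 in EGFP.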

How the results depend on the processing

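The members called higher in p400 knockdown numbered 8, beside 20.2% of all genes. They numbered 4 without the dye term (18% of all genes), 4 with median centring (15.4%) and 2 with arrays scaled to a common spread (10.6%). With the probe chosen in the two-colour EGFP channels they numbered 4 (19.8%), and with a 1.5-fold change also required 3. Those called lower numbered 11 (14.9% of all genes), and 23 with median centring (36%), 2 with a common spread (3.31%) and 1 with the 1.5-fold change. The share of all genes was not counted for the 1.5-fold change. Leaving out each array gave 6 to 11 higher and 8 to 13 lower (10.6% to 17.6% and 6.76% to 13.6% of all genes). In Tip60 knockdown the 4 higher (15.1% of all genes) became 1 with normexp and quantile normalization (10.4%), the array median (8.42%) or no filter (7.5%). They also became 1 with the series matrix (9.93%), slide 2 alone (8.23%) or the 1.5-fold change. They became 2 with quantile normalization (12.6%) or the median over probes (15.4%). The 10 lower (10.3%) became 25 with the array median (29%), 3 within slide 2 (2.55%) and 1 with the 1.5-fold change. Leaving out each array gave 1 to 4 higher and 8 to 10 lower (12.1% to 14.1% and 6.37% to 8.21% of all genes).

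The replicate block in the Tip60 fit left 1 higher and 6 lower (8.78% and 1.86% of all genes). Same-numbered arrays did not deviate together (r of -0.44, -0.14 and -0.27). The arrays of each such pair lay on different slides, so this check cannot tell whether the numbers pair the samples. The difference test called 0 members (2.24% of all genes higher and 1.77% lower). It called 7 higher with Satterthwaite degrees of freedom (7.29% of all genes), 2 with the series matrix (7.29%) and 1 with the deposited log ratio (3.17%). With median centring of the p400 arrays it called 9 lower, beside 22% of all genes. Leaving out each array gave 0 to 1 higher and 0 to 0 lower (0% to 2.12% and 0% to 1.73% of all genes).

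Of calls of single members, 2 turned the other way: with the probe chosen in the two-colour channels, Arid5b (-0.34) and Chd5 (-0.37) were lower in p400 knockdown. Other calls were lost with a change of sign: in p400 knockdown Chd1 (-0.20) and Baz2a (-0.016) with that probe choice, Arid5b (-0.16) and Chd1 (-0.087) with the median over probes, and Smarcb1 (-0.086) with median centring, and in Tip60 knockdown Chd5 (-0.0086) with either probe choice. Smarcc1 (-0.23) and Smarce1 (-0.30), above 0 and not called in p400 knockdown, were called lower with median centring. Over the single genes and alternatives run, 688 calls were kept, 133 were lost with the same sign and 7 with the other, and 2 were turned. Of values not called, 1097 stayed so, 66 were called with the same sign and 2 with the other. The cause was not tested. The median-based probe choice, slide 3 alone and the leave-one-out difference tests were added after seeing the data. The number of arrays and signal over background limit what dim genes such as Smarca2 can show.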
